A study of Homo sapiens with 8 samples.

Results

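The comparison described here sets 2 RNA-seq libraries of U2OS cells labelled Zab against 2 libraries of U2OS cells labelled WT, 4 of the 8 libraries in the series. Both groups lack overexpressed MYC, and they were taken by their genotype label. U2OS is an established human osteosarcoma cell line. Zab is written Zαβ in the series' design text, which in general use means the Zα and Zβ domains of ADAR1, an enzyme that edits RNA. The labels give no promoter, clone, dose or time for Zab and no other allele or agent for either group. Nor do they say whether replicates were grown separately, so p-values here reflect variation between libraries that could be technical alone. The other 4 libraries (2 labelled Zab + MYC O/E and 2 labelled MYC O/E, below Zab+MYC and MYC) are used only to ask whether the effect of Zab differed there.

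ADAR1, encoded by ADAR, converts adenosine to inosine in double-stranded RNA, and its long interferon-inducible form carries Zα, which binds the left-handed Z form of DNA and RNA. Unedited double-stranded RNA can be bound by sensors such as RIG-I (DDX58), MDA5 (IFIH1) and PKR (EIF2AK2). RIG-I and MDA5 signal to interferon genes, and interferon in turn acts through transcription factors at promoter elements called ISREs to switch on antiviral effectors such as ISG15, the OAS enzymes and the IFIT proteins.

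Levels are given in CPM, recovered sequence tags scaled to the exon tags of the library after composition scaling (TMM), which takes most genes as unchanged. The deposited scale instead keeps the authors' own factor for each library. Exon tags were 686991.5 and 805346.5 in the Zab libraries, against 756377 and 909601 in the WT libraries. The exon share of all tags was 60.8% ± 0.192 in Zab and 70.9% ± 0.342 in WT (SD, n = 2 each), and the deposited sum in Zab was 0.705 of that in WT. For each of these 2 measures the exact permutation test, two-sided, gave p = 0.333, the smallest that 2 against 2 libraries allow. The part of the exon share in the results below was not tested. Within each pair, counts over genes with at least 10 tags in the pair differed by no more than sampling noise (chi-square per degree of freedom 1.001 in Zab and 1.013 in WT). Over genes with at least 1000 tags the pairs did differ (1.28 over 187 genes in Zab and 1.23 over 203 genes in WT). Of the mesenchymal markers VIM, COL1A1, SPARC, FN1, CALD1 and RUNX2, all 6 tested were called lower in Zab, where the 8 listed markers summed to 8706 and 9119 CPM, against 10757 and 10560 CPM in WT. COL1A2 and TWIST1 had 0 tags in all 4 libraries. The 7 epithelial markers summed to 1706 and 1535 CPM in Zab, against 1604 and 1679 CPM in WT, nearly all from KRT8 (called lower) and KRT18 (called higher, but not on the deposited scale), with CDH1 at 0 tags in all 4 libraries. The 4 neural markers summed to 26.5 and 22.03 CPM in Zab, against 30.9 and 20.7 CPM in WT. In any of the 4 libraries the 6 blood markers summed to at most 2.45 CPM and the 4 endothelial markers to at most 6.46 CPM.

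Of 9673 genes tested, 1271 (13.1%) were called higher and 1092 (11.3%) lower in Zab with composition scaling, by limma with Benjamini-Hochberg adjusted p under 0.05. Of all genes tested, 235 (2.43%) were called higher by at least 2-fold and 339 (3.5%) lower by at least 2-fold. These shares of all genes tested are what the counts for each gene group below should be read against. Without WT replicate 1 the count of lower genes was 694. On the deposited scale the median gene lay at log2 -0.51, and 252 genes (2.61%) were called higher and 4768 (49.3%) lower, 51.9% in either direction. Counts of gene groups on that scale should be read against these shares of all genes. Of the 1271 genes called higher with composition scaling, 252 were also called higher on the deposited scale. Another 906 were not called there and 113 were called lower. All 1092 lower genes were also called lower there. The 2 scales share the same tags and differ only by 1 factor per library, which sets Zab lower against WT on the deposited scale. Lower calls there are therefore no second support for a decrease, here or in the lists below. Genes named below as higher were called on both scales unless stated. With composition scaling both Zab libraries lay above both WT libraries for 29.8% of genes tested and below both for 29.2%, whether or not they were called. Genes named for the largest changes had to show this separation, so it adds no support for them.

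**Figure D1:**
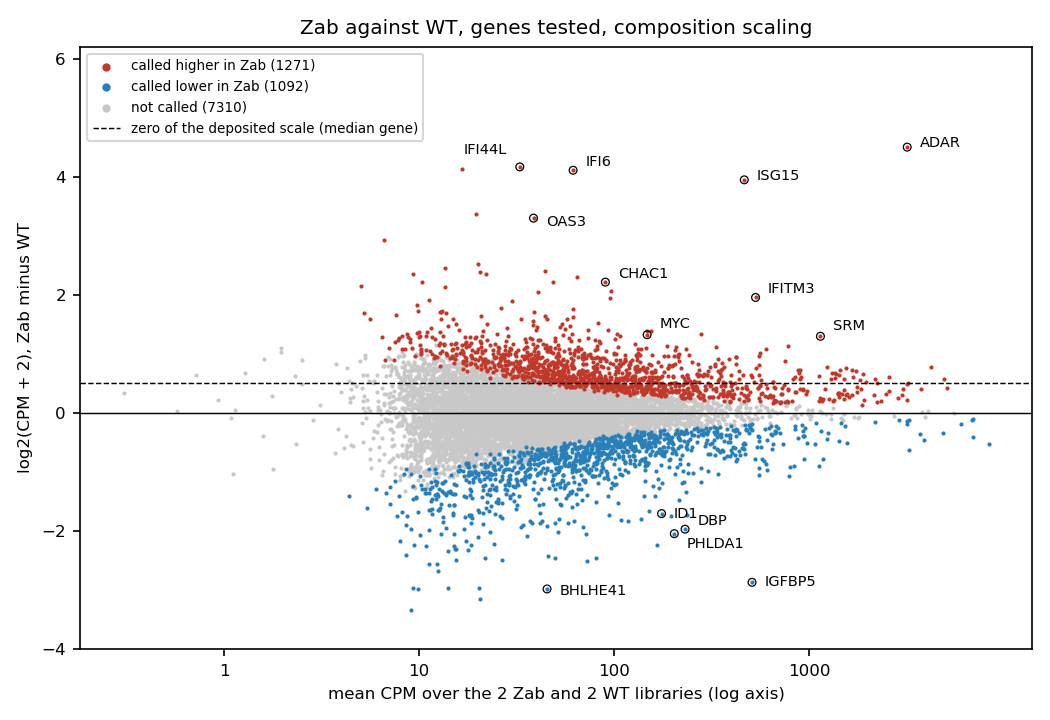
Each point is a gene, placed by its mean CPM over the 4 libraries (log axis) and by its log2(CPM + 2) in Zab minus that in WT, with the 1271 genes called higher in red, the 1092 called lower in blue and the others grey. The solid line is no change with composition scaling and the dashed line, 0.51 above it, is where the deposited scale has no change. ADAR is the highest point.

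ADAR itself (chromosome 1, 154554534 to 154578729, hg19, the human build named in the submitters' processing notes) showed the largest log2 increase of all genes tested. It stood at 6003 and 6198 CPM in the Zab libraries, against 264 and 269.6 CPM in the WT libraries. The groups lie far apart, with a fold of 22.7 (log2 4.50 ± 0.0589 SE, limma adjusted p = 4.4e-66), and the deposited scale gave log2 3.96. The files keep 1 transcript per symbol, and the ADAR transcript kept in the WT libraries was kept in neither Zab library, so introduced and endogenous ADAR are not separated. The same holds, that no kept transcript was shared between Zab and WT libraries, for IFI44L, OAS2, IFI27, NRG1, STRA6, BCL2L1, NOP16, COL6A3, CA12, AXL and PDGFRB below, whose values compare different transcripts of 1 gene. ZBP1, the other human protein with Zα domains, had 0 tags in all 4 libraries.

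Antiviral effectors were the group with the largest median increase. Of 47 tested members of 71 listed, 35 were called higher and 1 lower, with a median log2 of 1.56, against 0.00 over all genes. On the deposited scale 29 were called higher and 8 lower, with a median of 1.05 against -0.51. Promoters of 5 members with large increases are printed because they carry the ISRE core, searched as GAAA, any 2 bases and GAAA on either strand and shown in capitals. They are RefSeq windows of 300 bases (GRCh38.p14), from 250 bases before to 50 after the gene start, read 5′ to 3′ in the gene's direction. They lie at chr1:78620198-78620497 (plus strand), chr1:27672143-27672442 (minus strand), chr1:1013247-1013546 (plus strand), chr12:112938224-112938523 (plus strand) and chr10:89392373-89392672 (plus strand).
IFI44L: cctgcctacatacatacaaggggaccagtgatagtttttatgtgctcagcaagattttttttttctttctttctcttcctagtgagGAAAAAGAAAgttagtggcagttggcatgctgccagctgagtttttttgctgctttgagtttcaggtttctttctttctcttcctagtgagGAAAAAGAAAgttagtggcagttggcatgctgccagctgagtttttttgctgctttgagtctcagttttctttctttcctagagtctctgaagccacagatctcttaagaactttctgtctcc
IFI6: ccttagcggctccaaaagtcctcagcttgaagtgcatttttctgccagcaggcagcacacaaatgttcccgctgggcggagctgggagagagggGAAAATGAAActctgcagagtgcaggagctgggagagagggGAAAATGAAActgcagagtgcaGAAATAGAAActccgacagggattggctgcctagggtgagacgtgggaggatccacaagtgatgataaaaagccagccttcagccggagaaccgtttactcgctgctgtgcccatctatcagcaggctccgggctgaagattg
ISG15: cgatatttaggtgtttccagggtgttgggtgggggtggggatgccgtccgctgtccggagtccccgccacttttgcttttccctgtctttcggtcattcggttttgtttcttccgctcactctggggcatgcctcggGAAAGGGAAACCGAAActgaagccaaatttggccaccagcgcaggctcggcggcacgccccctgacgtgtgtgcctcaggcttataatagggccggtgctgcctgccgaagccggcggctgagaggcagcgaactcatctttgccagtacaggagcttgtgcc
OAS3: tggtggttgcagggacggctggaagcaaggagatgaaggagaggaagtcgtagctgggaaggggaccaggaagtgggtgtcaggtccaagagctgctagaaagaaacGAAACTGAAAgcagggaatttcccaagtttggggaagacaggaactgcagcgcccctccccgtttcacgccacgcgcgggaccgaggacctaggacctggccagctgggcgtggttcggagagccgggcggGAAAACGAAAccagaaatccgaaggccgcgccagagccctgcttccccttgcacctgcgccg
IFIT1: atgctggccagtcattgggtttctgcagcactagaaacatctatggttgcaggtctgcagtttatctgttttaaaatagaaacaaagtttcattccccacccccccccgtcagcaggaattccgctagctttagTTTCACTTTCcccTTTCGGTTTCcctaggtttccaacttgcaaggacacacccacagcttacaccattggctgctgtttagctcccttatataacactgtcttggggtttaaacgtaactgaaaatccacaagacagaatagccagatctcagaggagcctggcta

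Overlapping matches were counted on both strands, which gave 2 in each of these windows except 3 in that of IFI6. Over promoter windows of the antiviral effectors called higher, 23 of 37 (62.2%) held the ISRE core, and over those of effectors not called higher, 3 of 12 (25%). The share was 4.57% over all genes called higher, 2.44% over genes called lower and 2.64% over all genes tested. The 4.57% is 66 of 1445 windows, and the 23 windows of effectors called higher are among these 66. A match is a run of letters and says nothing of binding.

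The largest increases in this group spanned genes of moderate and of very low level in WT. ISG15, a ubiquitin-like modifier, had 845 and 906 CPM in Zab, against 55.5 and 54.03 CPM in WT, a 15.4-fold increase (log2 3.95 ± 0.175 SE, limma adjusted p = 8.2e-31). IFI6, which lies in mitochondria and the endoplasmic reticulum, had 118 and 118 CPM in Zab and 3.79 and 6.36 CPM in WT (17.3-fold, limma adjusted p = 1.5e-13). IFI44L, a negative feedback factor of the interferon response, had 96.5 tags over both Zab libraries, against 3 over both WT libraries, a ratio of 36.9 with a 95% counting interval of 12.3 to 182. The ranges of Zab and WT do not overlap for any of these 3 genes, as the rule that named them required.

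The OAS enzymes make the second messenger that activates RNase L. OAS2 had 36.6 and 29.99 CPM in Zab and 0 tags in both WT libraries, and so was at least 19.1-fold higher, taking 3 tags over the group as the floor. OAS3 had 73.2 and 70.4 CPM in Zab, against 5.68 and 5.30 CPM in WT (9.85-fold, limma adjusted p = 3.5e-10). OAS1 had 37.3 and 36.1 CPM in Zab, against 5.05 and 0 CPM in WT, and its log2 change of 3.37 became 4.26 on leaving out WT replicate 1 and 2.46 on leaving out WT replicate 2. All 3 genes lie apart between the groups, as their naming required, and the uncertainty is in how low WT was.

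IFIT3 and IFIT1, of which IFIT1 binds foreign RNA, rose too. IFIT3 had 24.4 and 24.5 CPM in Zab, against 2.52 and 3.18 CPM in WT (5.46-fold, limma adjusted p = 0.00017), and IFIT1 had 75.3 and 75.3 CPM in Zab, against 12.6 and 12.7 CPM in WT (5.27-fold, limma adjusted p = 2.5e-05, not called by DESeq2). IFITM1, which blocks viral entry, had 30.1 and 41.6 CPM in Zab and 5.05 and 5.30 CPM in WT (5.22-fold, limma adjusted p = 7.7e-06). IFI27, at 0 tags in WT, had 12.9 and 13.5 CPM in Zab and was at least 7.65-fold higher. PARP10, an ADP-ribosyltransferase, had 106 and 111 CPM in Zab and 16.4 and 25.4 CPM in WT (4.93-fold, limma adjusted p = 1.2e-08). In every one of these genes both Zab libraries lay above both WT libraries, which was a condition for naming them.

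Not all effectors followed. APOBEC3B, a DNA cytidine deaminase, was the only member called lower, at 54.5 and 62.4 CPM in Zab and 119 and 154 CPM in WT (2.27-fold lower, limma adjusted p = 4.3e-06). Of the 24 members too low to test, MX2 had 8.5 and 7 tags in Zab, against 0.5 and 0 in WT, and RSAD2, viperin, had 3 and 4 tags in Zab, against 0 and 0 in WT. MX1, a GTPase often used as an interferon marker, had 2 and 1 tags in Zab, against 2 and 0 in WT. These 3 untested genes were picked after their values were seen. OAS, IFITM and IFIT paralogs share sequence, so reads may be split between them.

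Sensors of nucleic acids were next. Of 11 tested, 7 were called higher and 0 lower (5 higher and 1 lower on the deposited scale), with a median log2 of 0.85 (0.33 on the deposited scale), and ADAR is one of the 7. DDX58, RIG-I, had 72.4 and 89.3 CPM in Zab and 20.8 and 11.7 CPM in WT (4.67-fold, limma adjusted p = 9.6e-08). ZNFX1, a helicase that binds viral RNA at mitochondria, had 413 and 386 CPM in Zab and 175 and 141 CPM in WT (2.52-fold, limma adjusted p = 7.3e-18). EIF2AK2, the kinase PKR, which halts translation on double-stranded RNA, had 160.0 and 129.7 CPM in Zab and 74.4 and 57.2 CPM in WT (2.17-fold, limma adjusted p = 1.4e-06). The adaptor MAVS, with 86.1 and 93.02 CPM in Zab and 91.5 and 95.9 CPM in WT, was not called (log2 -0.06) and is given for its role, outside the rule for named genes. IFIH1, MDA5, was too low to test, with 13 and 9 tags in Zab, against 2 and 1 in WT.

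In the signalling chain between sensors and effectors few genes were called. Of 15 tested members, 1 was called higher and 1 lower, and the median log2 was 0.08, or -0.45 on the deposited scale. STAT2, with 33.7 and 32.4 CPM in Zab and 30.9 and 39.2 CPM in WT, and IRF9, with 12.9 and 22.6 CPM in Zab and 8.83 and 9.01 CPM in WT, were not called and were picked after their values were seen. IFNB1, IFNL1 and CXCL10 had 0 tags in all 4 libraries. A count of 0 limits only what was sequenced at this depth.

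Some antigen processing genes rose. PSMB8, an immunoproteasome subunit, had 88.2 and 81.4 CPM in Zab and 35.96 and 34.96 CPM in WT (2.32-fold, limma adjusted p = 2.3e-05), and TAP1, a peptide transporter, had 85.4 and 104 CPM in Zab and 48.6 and 42.9 CPM in WT (2.02-fold, limma adjusted p = 6.2e-05). Over 19 tested members of the list, 4 were called higher and 1 lower, with a median of -0.04, or 2 higher and 11 lower on the deposited scale, with a median of -0.56. HLA-B was called higher with composition scaling (log2 0.28) but lower on the deposited scale (-0.26). Of 13 NF-kB targets and cytokines, 1 was called higher (NFKB1, not called on the deposited scale or by DESeq2) and 1 lower (IER3). Cell death effectors had 5 of 18 called higher and 1 lower (median 0.33), or 2 higher and 7 lower on the deposited scale (median -0.20), and 3 higher without Zab replicate 2. CASP4, the inflammatory caspase that senses lipopolysaccharide, had 71.01 and 86.3 CPM in Zab and 24.6 and 30.2 CPM in WT (2.74-fold, limma adjusted p = 7.1e-07), and BCL2L1, an inhibitor of apoptosis, had 288 and 279.7 CPM in Zab and 154 and 132 CPM in WT (1.98-fold, limma adjusted p = 9.9e-10).

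**Figure D2:**
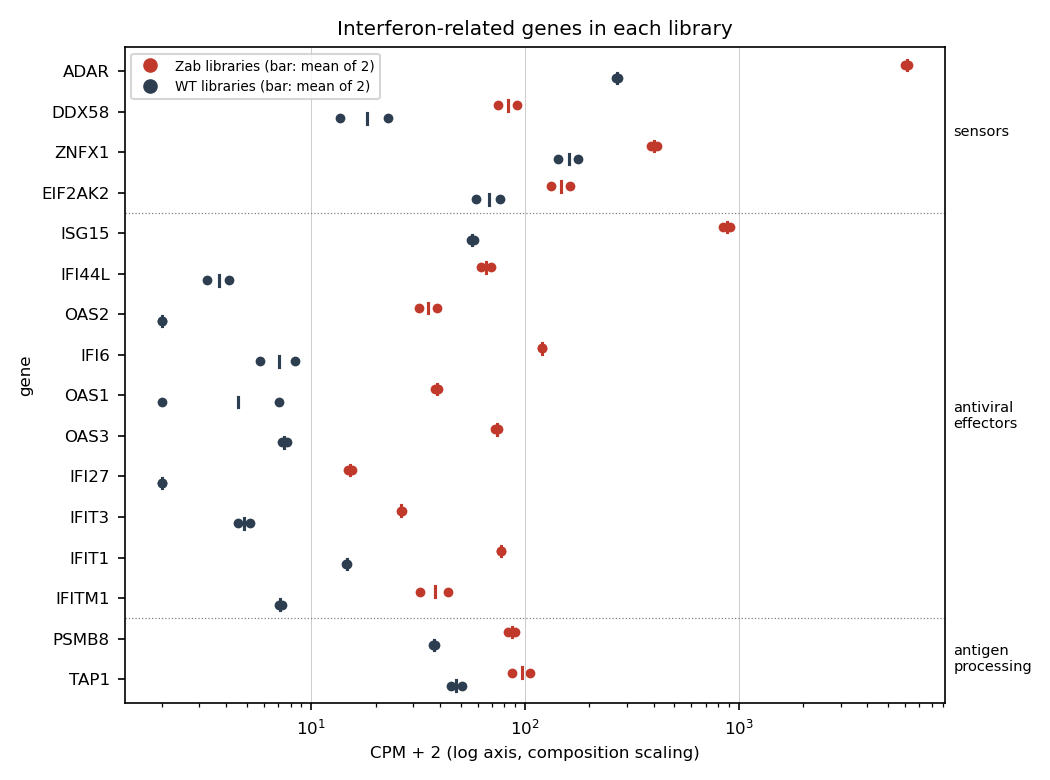
Each row is a gene and each point a library, with Zab in red above WT in dark blue, on a log axis of CPM + 2, and a bar at each group's mean of 2 libraries. In every gene shown both Zab points lie to the right of both WT points, with OAS2 and IFI27 at 0 tags in WT. This was a condition for the genes named for the largest changes.

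With composition scaling, MYC and many genes of ribosome assembly were called higher. MYC had 229.5 and 194 CPM in Zab and 72.6 and 94.8 CPM in WT (2.51-fold, limma adjusted p = 1.4e-20, deposited log2 0.79). Of 15 genes of the MYC, MAX and MXD family and their cofactors, 8 were called higher and 2 lower, with a median of 0.43 that was -0.10 on the deposited scale, where 2 were higher and 6 lower. The 2 lower genes, MXI1 and MXD4, are antagonists of MYC, and their calls ended with DESeq2, without a filter on low values and without either WT replicate 1 or Zab replicate 1, that of MXD4 also without each of the other libraries. Of 55 tested genes of the small-subunit processome and its snoRNPs, which cut and modify the ribosomal RNA precursor, 39 were called higher and 0 lower, median 0.61. Large-subunit assembly factors had 35 of 57 called higher and 0 lower, median 0.51. On the deposited scale the counts were 14 higher and 5 lower, median 0.09, and 16 higher and 10 lower, median 0.00, so that these lists lay near no change on the deposited scale and above its median gene. The windows of WDR43 and MYBBP1A, a called member of each list, are printed as examples that hold the E-box CACGTG, in capitals, and lie at chr2:28894417-28894716 (plus strand) and chr17:4555335-4555634 (minus strand).
WDR43: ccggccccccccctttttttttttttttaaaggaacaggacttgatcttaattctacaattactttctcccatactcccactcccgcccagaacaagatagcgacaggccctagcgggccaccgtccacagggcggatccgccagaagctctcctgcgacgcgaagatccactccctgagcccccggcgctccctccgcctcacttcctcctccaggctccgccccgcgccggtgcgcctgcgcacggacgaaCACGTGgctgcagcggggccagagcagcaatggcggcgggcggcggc
MYBBP1A: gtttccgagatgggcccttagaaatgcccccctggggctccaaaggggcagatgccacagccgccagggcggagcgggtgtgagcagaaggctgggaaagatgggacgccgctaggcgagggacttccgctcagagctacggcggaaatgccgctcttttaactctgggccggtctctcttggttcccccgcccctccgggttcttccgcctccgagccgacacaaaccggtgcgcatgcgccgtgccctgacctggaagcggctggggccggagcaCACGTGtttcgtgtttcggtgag

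The E-box is the letters that MYC and MAX bind in general. It stood in 23 of 49 windows (46.9%) of the small-subunit list and 17 of 55 (30.9%) of the large-subunit list, members called or not. The share was 14.9% over all genes called higher, 8.92% over genes called lower and 9.74% over all genes tested. A match says nothing of binding here either, and the part of MYC in these changes was not tested. WDR43, a processome protein, had 115 and 155 CPM in Zab and 39.1 and 61.5 CPM in WT (2.65-fold, limma adjusted p = 3.2e-13, deposited log2 0.88). NOL6 had 60.97 and 80.8 CPM in Zab and 26.5 and 31.8 CPM in WT (2.33-fold, limma adjusted p = 5.8e-07, deposited log2 0.70). Among large-subunit factors, NOP16 had 153 and 146 CPM in Zab and 52.99 and 63.04 CPM in WT (2.53-fold, limma adjusted p = 4.8e-16). RRP12, which takes part in the export of subunits, had 88.9 and 86.3 CPM in Zab and 32.8 and 34.4 CPM in WT (2.52-fold, limma adjusted p = 2.3e-11). MYBBP1A had 27.3 and 36.7 CPM in Zab and 9.46 and 15.9 CPM in WT (2.35-fold, limma adjusted p = 0.0003, not called by DESeq2). All 5 genes were called higher on both scales.

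Ribosomal proteins and mitochondrial genes showed smaller changes. Their list medians lay above that of all genes on both scales, though they were negative on the deposited scale. Of 78 cytosolic ribosomal proteins, 60 were called higher and 3 lower (RPL15, RPL4 and RPS2), with a median of 0.33 that became -0.21 on the deposited scale, where 10 were higher and 50 lower. RPL38 had 833 and 803 CPM in Zab and 361 and 406 CPM in WT (2.13-fold, limma adjusted p = 1e-24), and RPS18 had 5268 and 5327 CPM in Zab and 3074 and 3112 CPM in WT (1.71-fold, deposited log2 0.23). Pseudogene copies of this family may share reads. Mitochondrial ribosomal proteins had 26 of 77 higher and 1 lower, median 0.29. On the deposited scale 1 was higher and 27 lower, a share below the 49.3% of all genes tested, with a median of -0.24. Respiratory chain genes had 22 of 74 higher and 4 lower, median 0.14, but 1 higher and 50 lower on the deposited scale, median -0.40, and 14 higher without Zab replicate 1.

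Polyamine, nucleotide and stress genes changed in both directions. The lower counts given here for the deposited scale compare with 49.3% of all genes tested called lower there. SRM, spermidine synthase, had 1606 and 1647 CPM in Zab and 649.8 and 669.6 CPM in WT (2.46-fold, limma adjusted p = 1.8e-38), and NME1, a nucleoside diphosphate kinase whose transcripts can be shared with NME2, had 1065 and 1086 CPM in Zab and 485 and 494 CPM in WT (2.19-fold, limma adjusted p = 9.2e-30). TK1, thymidine kinase, went the other way, with 41.6 and 27.5 CPM in Zab and 64.4 and 98.00 CPM in WT (2.27-fold lower, limma adjusted p = 0.00014), in a list of 35 with 13 higher and 5 lower (median 0.28), or 2 higher and 14 lower on the deposited scale (median -0.24). Without WT replicate 1 or without Zab replicate 1, 3 were lower with composition scaling. Aminoacyl-tRNA synthetases had 12 of 20 higher and 0 lower, median 0.41 (deposited 2 higher and 5 lower, median -0.12), or 7 higher without WT replicate 1, with VARS1 at 580.3 and 530.0 CPM in Zab and 285 and 289 CPM in WT. CHAC1, a glutathione-degrading target of ATF4, stood at 141 and 159 CPM in Zab and 25.9 and 36.02 CPM in WT (4.65-fold, limma adjusted p = 7.3e-18). Chaperones of the endoplasmic reticulum moved the opposite way within the same list of 36, which had 13 higher and 7 lower (median 0.39), or 5 higher and 11 lower on the deposited scale (median -0.13). HSPA5, BiP, had 146 and 146 CPM in Zab and 273 and 281 CPM in WT (1.89-fold lower, limma adjusted p = 7.1e-10), and HSP90B1 had 397 and 452 CPM in Zab and 746 and 744 CPM in WT (1.75-fold lower, limma adjusted p = 8.3e-15). DDIT4, an inhibitor of mTORC1, had 31.6 and 39.2 CPM in Zab and 90.8 and 114 CPM in WT (2.79-fold lower, limma adjusted p = 7.5e-07). Of 31 heat shock and chaperone genes 12 were higher and 4 lower, and of 35 proteasome genes 5 were higher and 0 lower, or 9 without WT replicate 2. The medians of these 2 lists, 0.20 and 0.08, were -0.29 and -0.46 on the deposited scale, where 2 heat shock genes were higher and 19 lower, and 0 proteasome genes were higher and 28 lower.

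**Figure D3:**
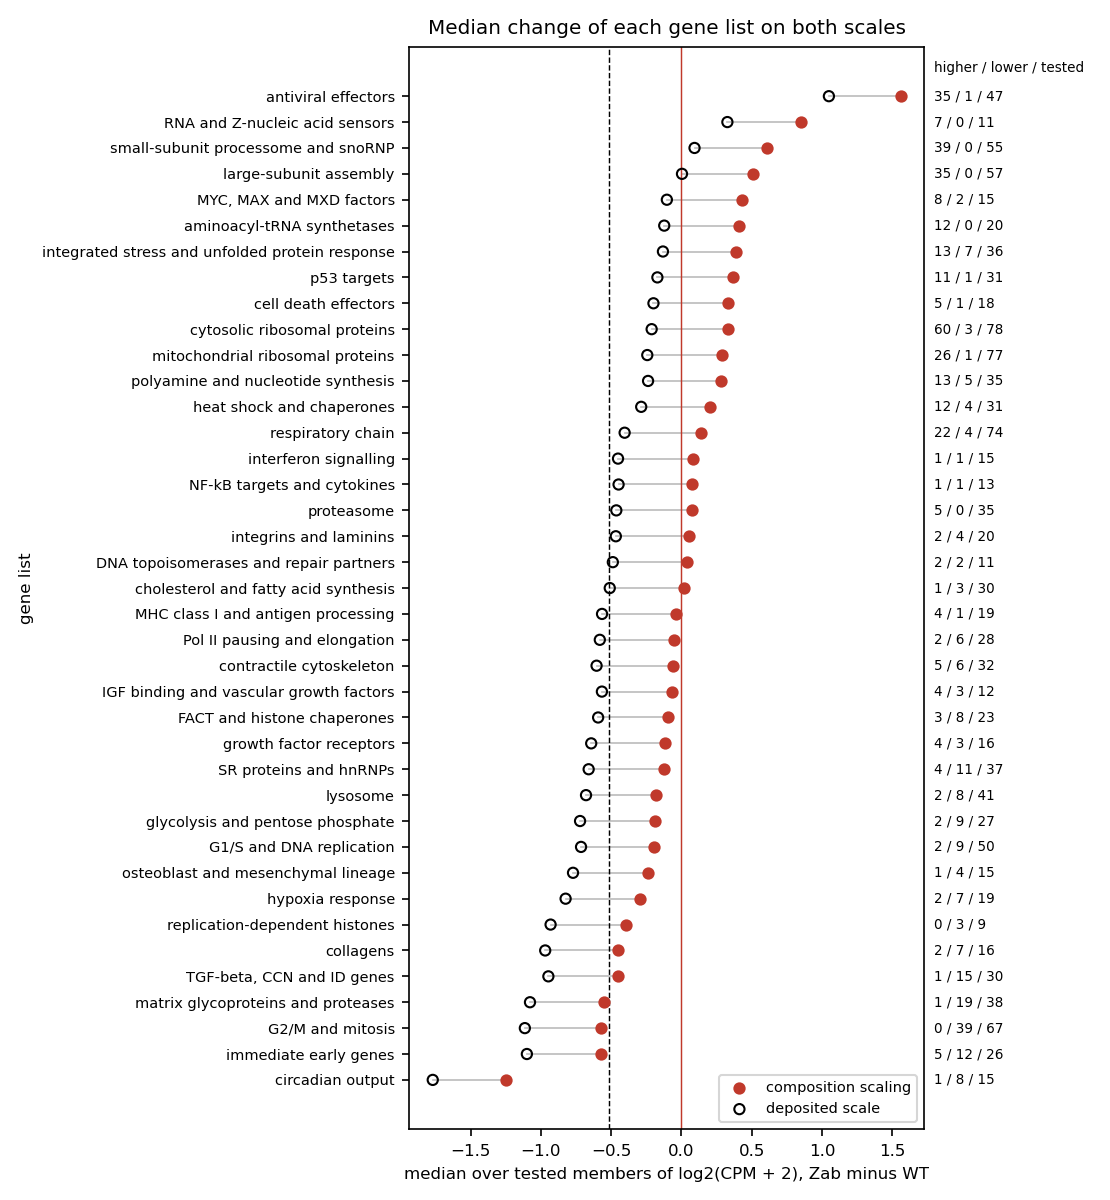
Each row is a gene list, placed by the median log2(CPM + 2) difference (Zab minus WT) over its tested members, with filled red points for composition scaling and open points for the deposited scale. The solid and dashed lines are the medians of all genes tested, 0.00 and -0.51, and the numbers at the right count members called higher, called lower and tested. Antiviral effectors lie at the top and circadian output at the bottom.

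Mitotic genes fell. Of 67 tested, 39 were called lower and 0 higher, with a median of -0.57, or -1.11 on the deposited scale. BUB1B, a spindle checkpoint kinase, had 30.1 and 33.05 CPM in Zab and 88.3 and 70.99 CPM in WT (2.42-fold lower, limma adjusted p = 1.5e-07). KIF20A, a cytokinesis motor, had 28.7 and 33.7 CPM in Zab and 85.8 and 63.04 CPM in WT (2.28-fold lower, limma adjusted p = 5.4e-05). CCNB2, cyclin B2, had 48.8 and 50.2 CPM in Zab and 103 and 109.7 CPM in WT (2.10-fold lower, limma adjusted p = 1.3e-05). In bulk RNA, fewer cells in mitosis and less of these RNAs per cell cannot be told apart.

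Genes of G1/S and DNA replication had fewer calls, with 9 of 50 lower and 2 higher and a median of -0.19. On the deposited scale 34 were lower and 1 higher. GINS2, of the replicative helicase, had 43.04 and 45.3 CPM in Zab and 92.1 and 84.8 CPM in WT (1.96-fold lower, limma adjusted p = 7.3e-05), while CCND2, cyclin D2, had 749.6 and 753 CPM in Zab and 367 and 377 CPM in WT (2.01-fold higher, limma adjusted p = 1.7e-22). Of 9 histones measured, 3 were lower and 0 higher, with H1-2, a linker histone, at 776 and 783 CPM in Zab and 1472 and 1452 CPM in WT. Among 31 p53 targets 11 were higher and 1 lower, with a median of 0.36. On the deposited scale 4 were higher and 9 lower, a share below the 49.3% of all genes tested, with a median of -0.17. CDKN1A, the cell cycle inhibitor p21, had 513 and 502 CPM in Zab and 265 and 273 CPM in WT (1.88-fold higher, limma adjusted p = 1.4e-13), and BTG2 had 133 and 93.6 CPM in Zab and 50.5 and 49.8 CPM in WT (2.18-fold higher, limma adjusted p = 2.7e-06).

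The circadian output list had the lowest median of all lists, -1.25, with 8 of 15 members called lower and 1 higher. On the deposited scale 11 were lower and 0 higher. BHLHE41, a repressor of clock genes, had 10.04 and 7.34 CPM in Zab and 87.1 and 76.8 CPM in WT (7.90-fold lower, limma adjusted p = 3.3e-12). DBP, a clock-driven transcription factor, had 87.5 and 98.5 CPM in Zab and 362 and 377 CPM in WT (3.91-fold lower, limma adjusted p = 7.1e-20). Its relative TEF had 1 tag over both Zab libraries, against 31 over both WT libraries (ratio 27.0, 95% counting interval 4.51 to 1102). PER2 had 7.17 and 7.96 CPM in Zab and 24.6 and 21.2 CPM in WT (2.60-fold lower, limma adjusted p = 8.8e-05). The core activators CLOCK and ARNTL were not called with composition scaling, at log2 -0.53 and 0.37, and are given outside the rule for named genes. The labels give no time of harvest.

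Among growth factor response genes, decreases were more frequent than increases. Of 26 immediate early genes, 12 were lower and 5 higher, the higher count being 3 when WT replicate 2 or Zab replicate 2 was left out. On the deposited scale 18 immediate early genes were lower and 1 higher. PHLDA1 had 83.2 and 73.4 CPM in Zab and 326 and 332 CPM in WT (4.13-fold lower, limma adjusted p = 5.3e-14). FOS, an AP-1 subunit, had 10.04 and 6.12 CPM in Zab and 37.2 and 39.2 CPM in WT (4.07-fold lower, limma adjusted p = 2.5e-05). FOSL1, another AP-1 subunit, moved the other way, at 113 and 125 CPM in Zab and 54.9 and 47.7 CPM in WT (2.27-fold higher, limma adjusted p = 6.8e-10). ERRFI1, a feedback inhibitor of the EGF receptor that is on none of the lists, had 18.6 and 22.03 CPM in Zab and 134 and 118 CPM in WT (5.72-fold lower, limma adjusted p = 9.7e-15).

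Of 30 TGF-beta, CCN and ID genes, 15 were lower and 1 higher, or 22 lower and 0 higher on the deposited scale. ID1, an inhibitor of DNA-binding helix-loop-helix factors and a BMP target, had 85.4 and 77.1 CPM in Zab and 261 and 277 CPM in WT (3.26-fold lower, limma adjusted p = 4.4e-15). SMAD6, a feedback inhibitor of BMP signalling, had 2.87 and 7.96 CPM in Zab and 33.4 and 25.4 CPM in WT (4.48-fold lower, limma adjusted p = 5.7e-05). NKD1, a feedback inhibitor of Wnt signalling that is not on the list, had 5.02 and 8.57 CPM in Zab and 44.8 and 47.7 CPM in WT (5.60-fold lower, limma adjusted p = 1e-07). For each of these genes the 2 Zab libraries lay below both WT libraries, which the naming rule required of NKD1.

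Many matrix genes fell in Zab. Of 38 matrix glycoproteins and proteases 19 were lower and 1 higher, and of 16 collagens 7 were lower and 2 higher, or 4 lower without WT replicate 1. On the deposited scale 30 matrix glycoproteins and proteases were lower and 1 higher, and 12 collagens were lower and 1 higher. MGP, an inhibitor of calcification, had 4.30 and 1.22 CPM in Zab and 36.6 and 39.7 CPM in WT (8.90-fold lower, limma adjusted p = 7.5e-07). TIMP2, a metalloproteinase inhibitor, had 101 and 78.3 CPM in Zab and 310.4 and 294 CPM in WT (3.34-fold lower, limma adjusted p = 6.2e-15). MMP3, stromelysin, was the member called higher, at 129.8 and 116 CPM in Zab and 49.2 and 34.96 CPM in WT (2.86-fold, limma adjusted p = 2.3e-10). COL6A3, a chain of type VI collagen, stood at 35.9 and 33.05 CPM in Zab, against 92.1 and 92.7 CPM in WT (2.59-fold lower, limma adjusted p = 8.6e-05). Both groups lay apart here, and COL6A2, of the same collagen, stood at 288 and 285 CPM in Zab, against 486 and 466 CPM in WT. COL27A1, a cartilage collagen, had 85.4 and 83.2 CPM in Zab and 32.8 and 34.4 CPM in WT (2.42-fold higher, limma adjusted p = 1.3e-07). Osteoblast and mesenchymal lineage genes had 4 of 15 lower (RUNX2, SNAI1, VIM and THY1) and 1 higher (MSX1, not called on the deposited scale). The calls of VIM, RUNX2 and SNAI1 ended without a filter on low values, those of SNAI1, THY1 and MSX1 with DESeq2, and those of RUNX2, SNAI1, THY1 and MSX1 ended when single libraries were left out. The mesenchymal markers given above fell alongside, and their part in the matrix result was not tested.

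Adhesion and contractile genes held calls in both directions with composition scaling. Called higher were 10% of integrins and laminins and 15.6% of contractile genes, against 13.1% of all genes tested. Called lower were 20% and 18.8%, against 11.3%. On the deposited scale 49.3% of all genes were lower. From lists this small, the shares with composition scaling are not read as a change of either group. Integrins and laminins had 2 of 20 higher and 4 lower (median 0.05), or 1 higher and 10 lower on the deposited scale (median -0.47). LAMA1, a laminin chain, was higher at 110.5 and 103 CPM in Zab and 34.7 and 43.97 CPM in WT (2.65-fold, limma adjusted p = 4.8e-11), and ITGB5, an integrin beta chain, was lower at 335 and 326 CPM in Zab and 495 and 508 CPM in WT (1.51-fold, limma adjusted p = 6.5e-07). Contractile genes had 5 of 32 higher, or 2 without WT replicate 1, and 6 lower (median -0.06), against 1 higher and 25 lower on the deposited scale (median -0.60). Among them was ACTG1, cytoplasmic gamma-actin, at 665 and 709 CPM in Zab and 1131 and 1240.2 CPM in WT (1.72-fold lower, limma adjusted p = 3.8e-21).

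**Figure D4:**
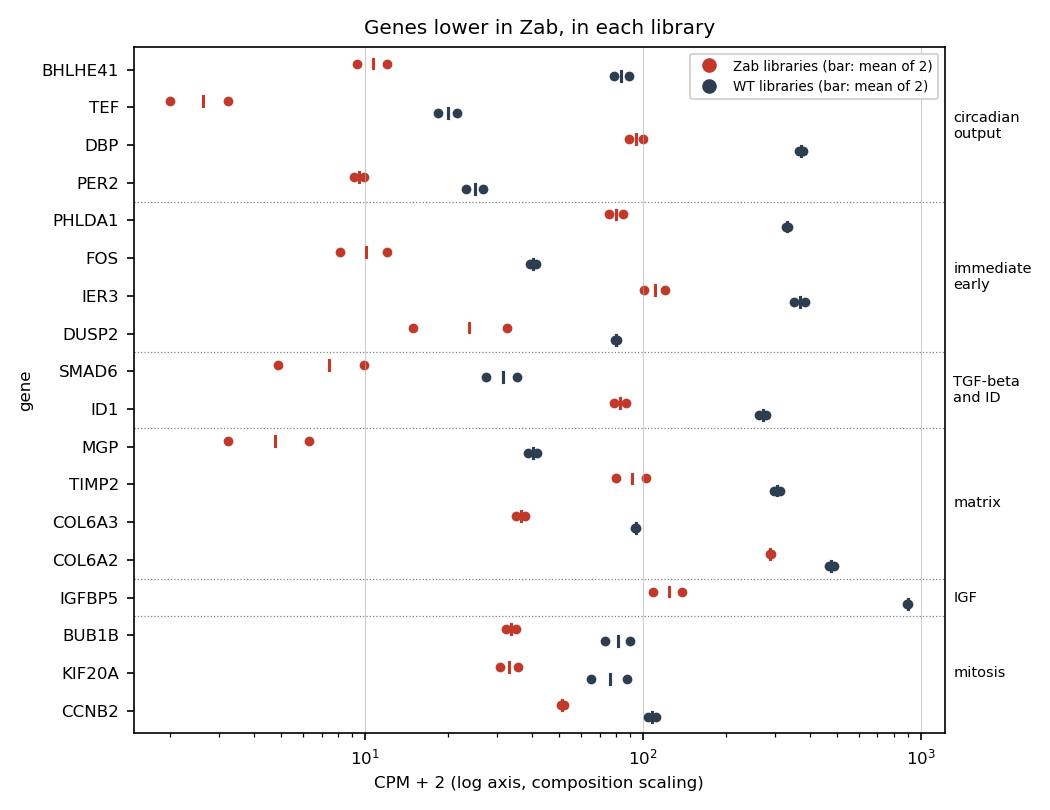
Each row is a gene called lower in Zab and each point a library, with Zab in red above WT in dark blue, on a log axis of CPM + 2, and a bar at each group's mean of 2 libraries. In every gene shown both Zab points lie to the left of both WT points, a condition for those named for the largest changes.

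Secreted growth factors and receptors changed gene by gene. IGFBP5, which binds insulin-like growth factors, had 137 and 107 CPM in Zab and 901 and 894 CPM in WT (7.30-fold lower, log2 -2.87 ± 0.189 SE, limma adjusted p = 1.7e-21). VEGFC, a lymphatic growth factor, had 53.1 and 61.2 CPM in Zab and 21.5 and 16.95 CPM in WT (2.80-fold higher, limma adjusted p = 2.7e-07), and VEGFA had 46.6 and 52.02 CPM in Zab and 15.1 and 27.02 CPM in WT (2.30-fold higher, limma adjusted p = 6.7e-05). PDGFRB, a receptor of mesenchymal cells, had 7.17 and 5.51 CPM in Zab and 37.2 and 30.2 CPM in WT (4.28-fold lower, limma adjusted p = 0.00011), while AXL had 173 and 184 CPM in Zab and 78.9 and 96.9 CPM in WT (2.01-fold higher, limma adjusted p = 5.7e-07). NRG1, a ligand of ERBB receptors, had 24.4 and 45.3 CPM in Zab and 1.26 and 9.54 CPM in WT, and its log2 change of 2.53 became 1.62 on leaving out WT replicate 1 and 3.43 on leaving out WT replicate 2. The lists of receptors and of IGF and vascular factors had 4 of 16 and 4 of 12 members higher and 3 of each lower, or 1 and 3 higher and 9 and 6 lower on the deposited scale.

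Other genes with large decreases belong to none of these lists. CCNG2, a cyclin of arrested cells, had 5.74 and 4.90 CPM in Zab and 35.96 and 40.8 CPM in WT (5.52-fold lower, limma adjusted p = 4.7e-06). COLEC12, a scavenger receptor, had 1 tag over both Zab libraries, against 33.5 over both WT libraries (ratio 29.2, 95% counting interval 4.90 to 1188). STRA6, the receptor of retinol-binding protein, stood at 5.74 and 1.22 CPM in Zab, against 38.5 and 36.02 CPM in WT, and its log2 change of -2.97 was -3.59 without Zab replicate 1 and -2.33 without Zab replicate 2. DRD1, a dopamine receptor, stood at 4.30 and 0 CPM in Zab, against 22.7 and 29.1 CPM in WT, and its log2 change of -2.97 was -3.78 without Zab replicate 1 and -2.12 without Zab replicate 2. For both receptors the Zab libraries lay below both WT libraries, as their naming required. AOX1, aldehyde oxidase, was a large increase outside the interferon lists, at 41.6 and 34.3 CPM in Zab and 4.42 and 7.42 CPM in WT (5.12-fold, limma adjusted p = 8.7e-10).

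Glycolysis and hypoxia genes held more decreases than increases. Glycolysis had 9 of 27 lower and 2 higher, or 23 lower and 1 higher on the deposited scale. LDHA, lactate dehydrogenase, stood at 1017 and 1072 CPM in Zab and 1421 and 1417 CPM in WT (1.36-fold lower, limma adjusted p = 2.6e-13). Hypoxia response genes had 7 of 19 lower, 5 of them by at least 2-fold, and 2 higher, with CA12, carbonic anhydrase XII, at 26.5 and 21.4 CPM in Zab and 88.3 and 96.4 CPM in WT (3.65-fold lower, limma adjusted p = 2e-13). Lysosomal genes had 8 of 41 lower and 2 higher, the lower count being 3 without WT replicate 1, 5 when WT replicate 2 was left out and 4 without Zab replicate 2. Cholesterol and fatty acid synthesis had 3 of 30 lower, a share below the 11.3% of all genes tested, and 1 higher, FASN, which was lower on the deposited scale (log2 -0.25).

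FACT, a histone chaperone complex that helps RNA polymerase pass nucleosomes, is named in the series title. Its subunit SUPT16H had 82.5 and 100.4 CPM in Zab and 86.4 and 92.7 CPM in WT and was not called (log2 0.02 ± 0.155 SE, limma adjusted p = 0.93), but on the deposited scale it was called lower at log2 -0.51, the value of the median gene. SSRP1, its partner, had 193 and 184 CPM in Zab and 259.9 and 203 CPM in WT (1.22-fold lower, limma adjusted p = 0.036), a call that ended under 7 alternatives, among them DESeq2 and leaving out WT replicate 1 or either Zab library. The list of FACT and histone chaperones had 8 of 23 lower and 3 higher, the lower count being 3 without WT replicate 1 and 4 without Zab replicate 1. Topoisomerases had 2 of 11 lower (TOP2A and TOP2B) and 2 higher, TOP2A standing at 239.6 and 234 CPM in Zab and 397 and 376 CPM in WT (1.63-fold lower, limma adjusted p = 2.4e-08). Pol II pausing genes had 6 of 28 lower and 2 higher, the lower count being 2 without WT replicate 1, 3 when WT replicate 2 was left out and 1 without Zab replicate 1. SR proteins and hnRNPs had 11 of 37 lower and 4 higher, the lower count being 7 without either WT replicate, 5 without Zab replicate 1 and 6 without Zab replicate 2. On the deposited scale FACT and histone chaperones had 18 lower and 1 higher, and topoisomerases 6 lower and 0 higher. Pol II pausing genes had 18 lower and 0 higher on that scale, and SR proteins and hnRNPs 32 lower and 1 higher. The alternating CG run CGCGCG, a sequence that can take the Z form, stood in 26.6% of promoter windows of genes called higher, 30.03% of those called lower and 27.5% of all tested.

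Whether Zab did the same where MYC was overexpressed was asked with Zab+MYC against MYC, which shares no library with Zab against WT. There 1146 genes (11.8%) were called higher and 787 (8.14%) lower. Of the 1271 genes higher in Zab, 130 (10.2%, or 11.3% of the 1146) were also called higher in Zab+MYC and 317 (24.9%) were called lower. Of the 1092 genes lower in Zab, 74 (6.78%, or 9.40% of the 787) were also called lower in Zab+MYC and 244 (22.3%) were called higher. The difference of the 2 effects was itself called for 1287 genes (13.3%) higher and 1408 (14.6%) lower, among them 880 of the 1271 and 720 of the 1092. The 1271 and 1092 genes were chosen by the Zab against WT change that enters this difference. That choice by itself raises their share, so these counts cannot be set against the shares of all genes.

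ADAR rose less with MYC, by log2 2.12 in Zab+MYC against MYC (difference 2.39 ± 0.0833 SE, limma adjusted p = 3e-37). Antiviral effectors had a median of 0.21 there, with 10 of 47 higher and 2 lower. The difference, as (Zab minus WT) minus (Zab+MYC minus MYC), was called positive for 20 and negative for 6. A negative difference need not be a larger effect with MYC. APOBEC3B, at -1.67, was called lower in Zab and was not called in Zab+MYC against MYC. ISG15 rose by 0.94 with MYC, and its difference was 3.01 ± 0.248 SE (limma adjusted p = 8.5e-17). IFI6 and OAS3, at log2 -0.04 and 0.09 with MYC, were not called there, and their differences were called (limma adjusted p = 1.3e-08 and 5.7e-06). PARP10 and DDX58 rose in both backgrounds, by 1.74 and 1.30 with MYC, and their differences were not called.

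With composition scaling, ribosome assembly went in opposite directions. In Zab+MYC against MYC, the small-subunit list had 0 higher and 31 lower of 55 (median -0.46) and the large-subunit list 0 higher and 35 lower of 57 (median -0.47). The difference was called for 46 and 49 of them, all toward larger in Zab against WT. SRM, for one, was at log2 -0.45 in Zab+MYC against MYC (difference 1.75 ± 0.0612 SE, limma adjusted p = 3e-37). On the deposited scale both assembly lists lay near no change in Zab against WT, with medians of 0.09 and 0.00. For mitotic genes 16 of 67 were higher and 1 lower with MYC (median 0.13), and the difference was called for 40, all toward lower in Zab against WT. Matrix glycoproteins were higher in 17 of 38 with MYC and lower in 0 (median 0.47), with 27 differences toward lower in Zab against WT and 1 toward higher. CCNG2 was called higher with MYC (log2 1.24, difference -3.70 ± 0.608 SE, limma adjusted p = 1.2e-06). PDGFRB had 8.76 and 9.21 CPM in Zab+MYC and 0 and 0 CPM in MYC, a called increase there (log2 2.46, difference -4.56 ± 0.615 SE, limma adjusted p = 7.7e-09). ADAR RNA was lower in Zab+MYC (1068 and 1019 CPM) than in Zab, and its part in these differences was not tested. MYC RNA was called lower in Zab+MYC than in MYC (log2 -0.84), and its part was not tested either.

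**Figure D5:**
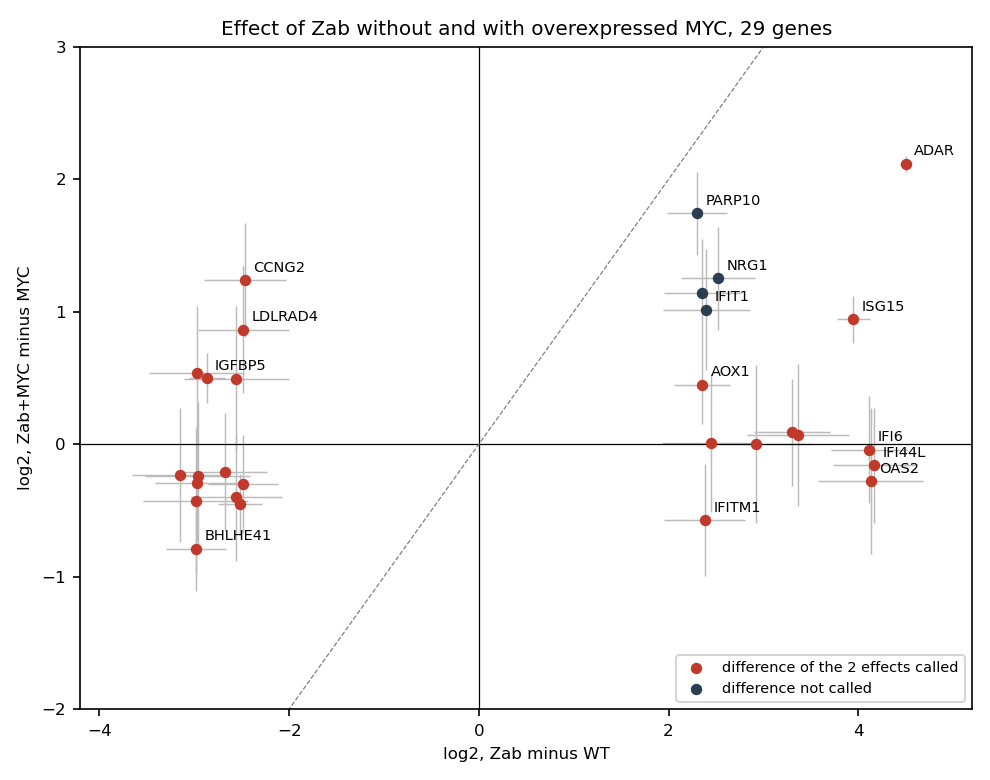
Each point is one of 29 genes named for the largest changes, placed by its log2 change in Zab minus WT (across) and in Zab+MYC minus MYC (up), with bars of 1 SE and a dashed line where both are equal. Red points are genes whose difference of the 2 effects was called, and dark points those where it was not. Most of the 29 lie between -1 and 1 on the upright axis, and ADAR, at 4.50 across and 2.12 up, is the highest. The genes were chosen by their change across, which by itself favours larger values across than up.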

How the data were processed

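Per the labels' protocols, total RNA for 8 U2OS libraries came from a Trizol extraction and went into an Abclonal library kit. The submitters' processing notes name Trim Galore 0.6.6, STAR, HOMER 4.11.1 and the builds hg19 and dm6, without roles, and the file headers name a spike-in folder. The deposited values are a signal: per gene, the authors' tags times 1 factor per library. The sources used here do not state how that factor was set. The values were whole multiples of 1 step per library (100% of values within 0.1 step). With 2 steps taken as 1 tag, tags were recovered to the nearest 0.5 for 19414 genes, of which 9673 were tested. limma 3.58.1 with a trend (R 4.3.3) was run on log2(CPM + 2) over all 8 libraries with 1 mean per group, and called at Benjamini-Hochberg adjusted p under 0.05. Folds are the fitted changes on the CPM + 2 scale, which understates those of low genes. edgeR 4.0.16 and DESeq2 1.42.0 on the recovered tags were alternatives, and the code was tested on simulated data.

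The gene lists and members were chosen with earlier results of these data known. Genes named are ADAR, MYC, SUPT16H, SSRP1 and ZBP1, the 15 largest called, non-overlapping changes each way at 10 CPM or more, and up to 4 called members each way of each of 39 lists. This rule gave 230 genes, from which the text names a selection, made for their known roles after values were seen, and some genes are not reported here. Replicate numbers only name libraries. Near-identical genes (ribosomal proteins, HLA, histones) and overlapping genes may share reads, and whether counting used strand is not stated. Intervals and floors (95%, 3 tags over a group) cover counting error only. Promoters came from RefSeq (GRCh38.p14), matched by symbol for 7889 of the genes tested.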

Additional observations from a re-analysis of the deposited data

Results flagged for a closer look

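All results here were flagged because the effect of Zab differed between cells without and with overexpressed MYC, by limma's test of that difference with composition scaling. Apart from MYC, the genes below were named for large changes in Zab against WT, and those values enter the difference. The difference, as (Zab minus WT) minus (Zab+MYC minus MYC), was called positive for 1287 genes and negative for 1408. ADAR differed by 2.39 on the log2 scale and MYC by 2.16. MYC stood at 707 and 705 CPM in Zab+MYC and 1237 and 1289.6 CPM in MYC. In that comparison it was called lower (log2 -0.84, limma adjusted p = 1.3e-11), while in Zab against WT it was called higher (log2 1.33).

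Among interferon genes the difference was 4.41 for OAS2, 4.33 for IFI44L, 4.15 for IFI6, 3.29 for OAS1, 3.21 for OAS3, 3.01 for ISG15, 2.96 for IFITM1, 2.92 for IFI27 and 2.44 for IFIT3. AOX1 differed by 1.90. IFI6 had 1.46 and 4.25 CPM in Zab+MYC and 2.80 and 2.78 CPM in MYC, and OAS3 had 4.38 and 2.84 CPM in Zab+MYC and 3.27 and 3.17 CPM in MYC.

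Among genes lower in Zab the difference was -3.70 for CCNG2, -3.51 for STRA6, -3.37 for IGFBP5, -3.35 for LDLRAD4, -3.05 for TJP3, -2.92 for MGP, -2.72 for DRD1 and -2.68 for TEF. It was -2.55 for COLEC12, -2.47 for TRABD2B, -2.19 for BHLHE41, -2.19 for NKD1, -2.16 for CTSV and -2.06 for ERRFI1. IGFBP5 had 28.7 and 14.2 CPM in Zab+MYC and 15.9 and 11.9 CPM in MYC. For LDLRAD4 too, no kept transcript was shared between Zab and WT libraries.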

How the results depend on the processing

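With 2 libraries a group, calls rest on a spread shared by all 8 libraries, and leaving out 1 leaves a lone library assumed to vary like the rest. For Zab against WT with composition scaling, DESeq2 called 500 genes higher and 389 lower. Limiting to genes whose kept transcript matched across all 8 libraries gave 723 and 637, those with the same transcript in the 4 libraries gave 804 and 628 (added after the data were seen), calls of at least 2-fold 235 and 339 (also added), and the deposited scale 252 and 4768. Leaving out each library gave 971 to 1066 higher and 694 to 873 lower. On the deposited scale, the same transcript in all 8 libraries gave 147 and 2349, and leaving out a library 187 to 236 and 3804 to 4064. For Zab+MYC against MYC, DESeq2 gave 335 and 367, the same transcript 563 and 481, and leaving out a library 628 to 748 and 460 to 588. For the difference, DESeq2 gave 617 and 501, the same transcript 745 and 751, and leaving out a library 1076 to 1292 and 1047 to 1229. The causes were not tested, beyond fewer genes or samples where the alternative has fewer.

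The replicate block gave 1307 higher and 1127 lower for Zab against WT, 261 and 4801 on the deposited scale, 1182 and 828 for Zab+MYC against MYC, and 1309 and 1447 for the difference. Same-numbered Zab and WT libraries shared only a number (correlation of deviations -0.0029). Of 230 genes named by the rule, 130 kept their direction and side of the threshold under every alternative that gave them a result. Some alternatives gave no result for part of the 230. Under the same transcript in all 8 libraries, 129 kept both and 3 lost their call, and ADAR could not be tested. Under DESeq2, 132 kept both and 71 lost their call. On the deposited scale 33 lost their call and 18 changed sign: SUPT16H -0.51, HLA-B -0.26, PSMB3 -0.14, ADRM1 -0.16, PSMD14 -0.18, CDK6 -0.15, ITGA3 -0.19, MAFK -0.0716, ACTN1 -0.19, FASN -0.25, SRSF2 -0.31, HNRNPAB -0.35, ANP32B -0.24, NPM1 -0.34, TOP3A -0.00981, EPHA2 -0.0298, IGF1R -0.13 and IGF2R -0.11.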

Other observations

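Some genes were called in the same direction in Zab against WT and in Zab+MYC against MYC, and the following were picked after their values were seen, by the smaller of their 2 changes. EDN1, the vasoconstrictor endothelin-1, had 22.95 and 20.8 CPM in Zab and 7.57 and 3.71 CPM in WT, and 24.3 and 26.2 CPM in Zab+MYC and 2.80 and 3.17 CPM in MYC. VGLL3, a cofactor of TEAD transcription factors, had 18.6 and 22.03 CPM in Zab and 3.79 and 7.42 CPM in WT, and 6.81 and 9.92 CPM in Zab+MYC and 3.74 and 0 CPM in MYC. Both genes were higher with Zab in either background.

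LEF1, a transcription factor of the Wnt pathway, had 6.46 and 19.6 CPM in Zab and 41.6 and 31.8 CPM in WT, and 14.6 and 12.8 CPM in Zab+MYC and 26.6 and 36.9 CPM in MYC. FOXC1, a forkhead factor of mesenchymal development, had 12.9 and 23.3 CPM in Zab and 30.3 and 42.4 CPM in WT, and 25.3 and 28.4 CPM in Zab+MYC and 47.6 and 50.8 CPM in MYC. ASS1, of arginine synthesis, had 14.3 and 14.7 CPM in Zab and 35.3 and 28.1 CPM in WT, and 21.9 and 19.8 CPM in Zab+MYC and 35.5 and 44.4 CPM in MYC. These 3 genes were lower with Zab in either background.

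Genes with the shortest summed exons were called higher more often than others. In the fifth of genes with the shortest summed exons (296 to 1847 bases) 19.0% were called higher and 11.5% lower, and in the fifth with the longest (5939 to 33932 bases) 10.6% were called higher and 9.51% lower. The medians of these 2 groups, 0.03 and 0.00, were close. Genes called higher and lower had median levels of 80.3 and 74.7 CPM, against 40.0 CPM over all genes tested. The part of level in the shares by length was not tested.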
